A study of Oryza sativa with 48 samples.

Results

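A group of 14 rice genes had next to no transcripts in leaves in air and was present in every submerged group after 1 day under water. The genes were chosen by their measured levels, given as counts scaled to a library total of 1000000 (CPM). A gene was taken when its group mean was under 0.2 CPM in all 4 groups of day 0 and at least 10 CPM in all 4 groups of day 1, which 14 of 37830 genes met. Of those 37830 genes, 13008 passed the day 0 threshold, 5578 of them with a count in some library, and 9185 passed the day 1 threshold. Levels on days 0 and 1, and ratios to them, are therefore given as a description without a test.

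RNA was sequenced from leaves of M202(Sub1), the near-isogenic line of the rice cultivar M202 that carries the submergence tolerance gene SUB1A, and of M202 itself, which lacks it. All plants were raised in pots in a greenhouse and, apart from those of day 0, were held completely under water for 1, 3 or 6 days. The elongating leaf, which was the fifth, was harvested apart from the lower, non-elongating leaves directly after the plants left the water. The 4 groups of M202(Sub1) elongating leaves, the 4 of M202(Sub1) non-elongating leaves, the 4 of M202 elongating leaves and the 4 of M202 non-elongating leaves, at days 0, 1, 3 and 6, each had 3 independent biological replicates. No group held leaves kept in air to the later days, so submergence, leaf age and day of sampling cannot be told apart.

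Water slows the diffusion of gases, so oxygen runs short in submerged plant tissue and ethylene builds up. Cells then turn from respiration to fermentation, in which pyruvate decarboxylase and alcohol dehydrogenase regenerate the oxidised cofactor that glycolysis needs. SUB1A encodes an ethylene response factor that restrains leaf elongation and the use of carbohydrate under water. The gene table used for names holds none of the 14 identifiers, so they are called by identifier, without a role.

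The 48 libraries held 4873142 to 10369501 counts (median 6854259.5), and replicates of a group correlated at 0.977 or more across genes. M202 non-elongating leaves on day 6 held the lowest correlation, and the most abundant gene took 9.82% of the counts of replicate 2 and 8.01% of those of replicate 3 there, against 3.06% in replicate 1. The leaf markers RCA (rubisco activase) and CAB1R (a chlorophyll-binding protein) were present in every library, at 494 to 13490 CPM and 369 to 3055 CPM. Even numbers made up 62.3 to 73.8% of the nonzero counts of a library, so both reads of a pair may have been counted. In leaves as a whole, fewer cells expressing a gene and less RNA per cell cannot be told apart.

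At day 0 the genes were close to silent. Of the 14 genes, 7 had no count in any of the 12 day 0 libraries, and the 14 genes together had 29 counts there. A count was present in 14 of 168 pairs of gene and library, and in 12 of these 14 it was exactly 2. The largest shares were 9 counts over 5 genes in replicate 2 of M202(Sub1) non-elongating leaves and 8 counts over 3 genes in replicate 1 of M202 non-elongating leaves. Leaving out the first of these libraries raised the number of genes that met the thresholds to 24. A floor set at 3 counts per library corresponded to 0.388 to 0.605 CPM at day 0. Lower levels gave a count in some libraries and none in others, and could not be resolved at this depth.

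On the first day under water the genes took very different shares of the counts. CPM is not scaled to gene length, so these shares give no order of transcript numbers. OS03G0765500 took the most, with a mean of 2680 CPM over the 4 day 1 groups, followed by OS02G0802500 at 190 CPM and OS02G0730000 at 95.4 CPM. The other 11 genes lay between 13.8 CPM (OS01G0318202) and 69.2 CPM (OS02G0791400). For OS02G0791400, without a count at day 0, the rise to day 1 was at least 170-fold in M202(Sub1) elongating, 258-fold in M202(Sub1) non-elongating, 60.7-fold in M202 elongating and 105-fold in M202 non-elongating leaves, against a floor of 3 counts per library.

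The thresholds lay within a continuous range of values. The lowest day 1 group means inside the threshold were 10.4 CPM for OS06G0142400, 10.6 CPM for OS03G0765500 and 12.1 CPM for OS01G0318202. Just outside it were OS05G0170200 at 9.66 CPM, OS04G0635000 at 9.43 CPM and OS02G0467600 at 8.61 CPM. The highest day 0 group means inside were 0.177 CPM for OS01G0318202, 0.147 CPM for OS02G0802500 and 0.109 CPM for OS06G0142400. Just outside were OS01G0601675 and OS03G0365800, both at 0.20 CPM, and OS01G0326100 at 0.211 CPM. The gene with the highest mean CPM of all 14, OS03G0765500, was thus among those nearest to exclusion, through its level in M202 elongating leaves.

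**Figure D1:**
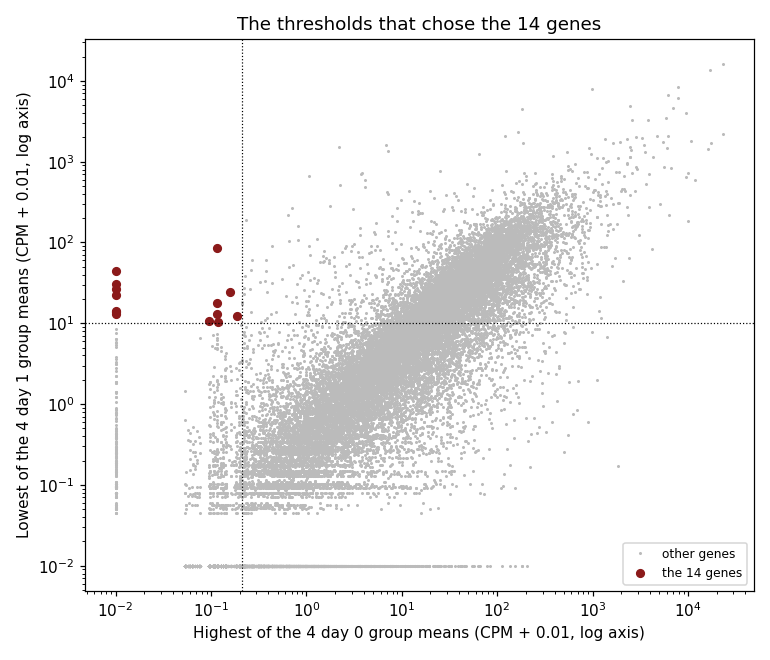
Each point is 1 gene, at its highest group mean of day 0 (horizontal) and its lowest group mean of day 1 (vertical), in CPM plus 0.01 on log axes. Dotted lines mark the thresholds of 0.2 and 10 CPM, and the 14 genes (red) fill the upper left corner, with 7 of them at 0 on day 0.

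By position, read from the identifiers, 4 of the 14 genes lie on chromosome 6, 3 on chromosome 2, 2 each on chromosomes 1 and 5, and 1 each on chromosomes 3, 4 and 7. On chromosome 6, OS06G0142200, OS06G0142300 and OS06G0142400 are neighbours, with only OS06G0142350 between them in the table. OS06G0142350 also had no count at day 0 and had day 1 group means of 5.77 to 20.5 CPM, so that it missed the day 1 threshold. The genes on either side of this run did not share the pattern, with day 0 means of up to 0.387 CPM and day 1 means of up to 0.204 CPM for OS06G0142100, and of up to 4.40 CPM and 5.26 CPM for OS06G0142500. Beside OS04G0634900, the next identifier OS04G0635000 had up to 0.199 CPM at day 0 and 9.43 to 77.3 CPM on day 1. Beside OS02G0791400, OS02G0791300 was at 0 on day 0 and had 6.40 to 20.9 CPM on day 1. Whether neighbouring genes share reads through similar sequence was not tested.

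After day 1 the levels declined in all 4 series of genotype and leaf type. The median of the 14 genes on days 3 and 6 was 82.1% and 31% of the day 1 mean in M202(Sub1) elongating leaves. In M202(Sub1) non-elongating leaves it was 65.9% and 21.3%, in M202 elongating leaves 54.8% and 16.2%, and in M202 non-elongating leaves 45.8% and 11.1%. Over the 9185 genes that passed the day 1 threshold the same medians lay between 98.5% and 107% on day 3. On day 6 they were 86.7% in M202 non-elongating leaves and between 100% and 108% in the other series. Of the 14 genes, 13 were below day 1 on day 3 in all 4 series, and 13 were below day 3 on day 6 in all 4. Such counts were not made for the 9185 genes, so they have no share to stand beside. Because a high day 1 level chose the genes, which favours a fall from day 1, the ratios to day 1 carry no test.

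**Figure D2:**
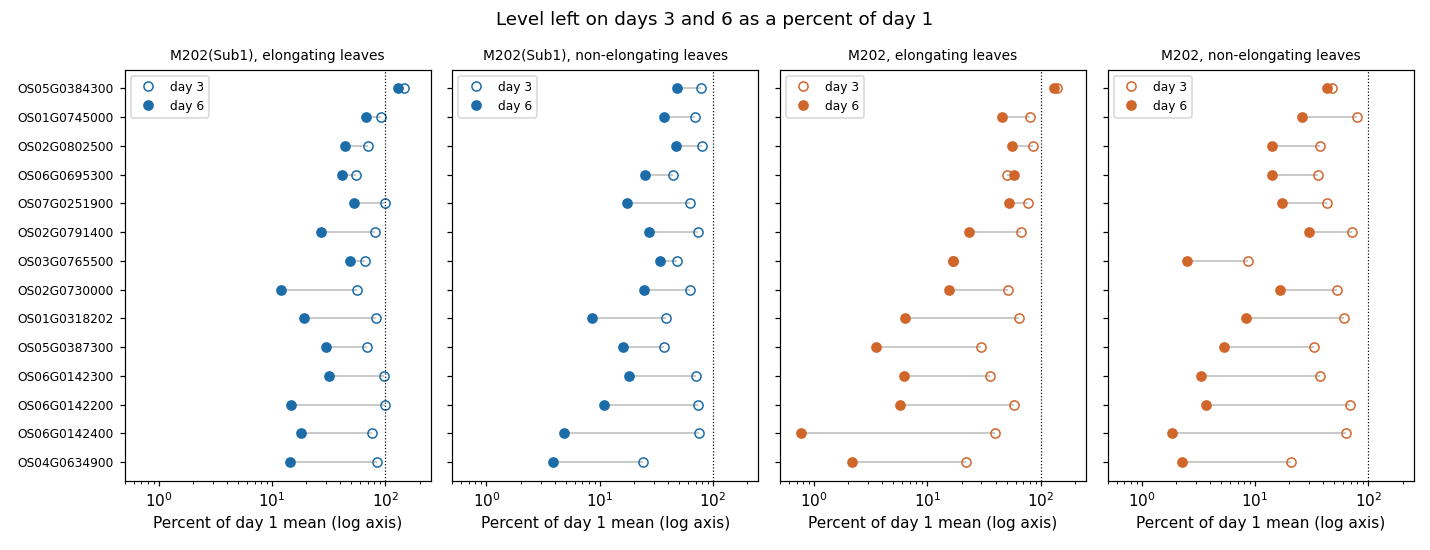
Level of each of the 14 genes on day 3 (open) and day 6 (filled) as a percent of its day 1 group mean on a log axis, ordered by the mean decline to day 6, with 1 panel per genotype and leaf type. The dotted line is 100%; OS05G0384300 at the top lies to the right of it in elongating leaves of both genotypes, and day 6 medians are 31% and 21.3% in M202(Sub1) against 16.2% and 11.1% in M202.

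Decline was steep in OS04G0634900, whose mean log2 ratio of day 6 to day 1 over the 4 series was -4.23 with 0.5 CPM added to both levels, and in the 3 neighbours on chromosome 6, with -3.76 for OS06G0142400, -3.56 for OS06G0142200 and -3.02 for OS06G0142300. The added 0.5 CPM weighs on the order of the first pair, since OS06G0142400 was left at 0.759% of day 1 in M202 elongating and 1.84% in M202 non-elongating leaves, where OS04G0634900 was left at 2.17% and 2.26%. In M202(Sub1) OS06G0142400 was left at 17.9% in elongating and 4.88% in non-elongating leaves, and OS04G0634900 at 14.4% and 3.87%. At the other end, OS05G0384300 averaged -0.37, OS01G0745000 -1.25, OS02G0802500 -1.47 and OS06G0695300 -1.65. OS05G0384300 stood above its day 1 mean in elongating leaves, with 145% and 128% left on days 3 and 6 in M202(Sub1), against 140% and 131% in M202. On day 6, 9 of the 14 genes were still at or above 10 CPM in M202(Sub1) elongating leaves and 7 in M202(Sub1) non-elongating leaves, against 6 in each leaf type of M202. Only OS06G0142400 in M202 elongating leaves was back under 0.2 CPM.

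The decline between the later days was tested as day 6 against day 3, whose libraries took no part in the thresholds that chose the genes. The genes were still chosen with earlier results of these data known, so the test may not be free of that choice. The spread in this test was estimated from all 48 libraries, which include those of days 0 and 1 that chose the genes. Here and below, a gene is called when its adjusted p in edgeR's quasi-likelihood test was under 0.05, and changes are log2 values with the SE of the fit. All 14 genes passed the filter on low counts, which they did only through their submerged levels. In M202(Sub1) elongating leaves 10 of the 14 were lower on day 6 than on day 3 and 0 higher, where 7.13% of all 21453 tested genes were lower and 6.74% higher. In M202(Sub1) non-elongating leaves 11 were lower and 0 higher, against 3.83% and 3.60% of all genes. In M202 elongating leaves 11 were lower and 0 higher, against 14.6% and 13.7%, and in M202 non-elongating leaves 13 were lower and 0 higher, against 15.3% and 13.9%. Median changes of the 14 genes were -1.43, -1.41, -1.60 and -1.49 in that order, and those of all tested genes -0.01, -0.01, 0.00 and -0.02.

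In all 4 series 10 of the 14 genes were called lower on day 6 than on day 3. OS01G0745000 was called in 3 series, OS03G0765500 and OS06G0695300 in 1 each, and OS05G0384300 in none. Some of these calls rested on 1 library: OS01G0318202 in M202(Sub1) non-elongating leaves was not called without replicate 1 of day 3 (edgeR adjusted p = 0.0902), and OS02G0802500 and OS07G0251900 in M202 elongating leaves were not called without replicate 1 of day 3 (0.0567 and 0.0603) or of day 6 (0.102 and 0.057). The only call of OS06G0695300, in M202 non-elongating leaves, was lost in 1 of the fits that left out 1 library. Calls of OS01G0745000 were lost in 1 such fit in M202 elongating leaves and in 2 in M202(Sub1) non-elongating leaves. The largest called change was that of OS06G0142400 in all series but M202(Sub1) elongating leaves. It was -3.95 ± 0.42 in M202(Sub1) non-elongating leaves (edgeR adjusted p = 7.4e-09), -4.74 ± 0.43 in M202 non-elongating leaves (3.35e-11) and -5.44 ± 0.68 in M202 elongating leaves (5.65e-08). The last rests on 2 counts over 3 day 6 libraries against 76 on day 3, a ratio of 0.0187 with an exact binomial 95% interval of 0.00222 to 0.0697 that covers counting error only. In M202(Sub1) elongating leaves OS06G0142200 changed most, by -2.79 ± 0.26 (edgeR adjusted p = 4.32e-10).

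The neighbours on chromosome 6 fell together between days 3 and 6. OS06G0142200 in M202(Sub1) elongating leaves had 9.69, 6.95 and 5.57 CPM on day 6, against 52.6, 39.3 and 59.0 CPM on day 3. In M202(Sub1) non-elongating leaves it had 15.9, 7.18 and 6.58 CPM on day 6, against 68.4, 61.8 and 68.6 CPM on day 3. In M202 non-elongating leaves it had 4.37, 3.83 and 1.82 CPM on day 6, against 81.0, 59.6 and 47.6 CPM on day 3. The libraries of the 2 days were far apart in each of these series. OS06G0142300 changed by -1.63 ± 0.40 in M202(Sub1) elongating leaves (edgeR adjusted p = 0.00384), -2.01 ± 0.43 in M202(Sub1) non-elongating leaves (0.00194), -2.53 ± 0.46 in M202 elongating leaves (5.94e-05) and -3.24 ± 0.44 in M202 non-elongating leaves (5e-07).

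OS05G0384300 behaved otherwise. It had 29.8, 30.7 and 31.1 CPM on day 6 in M202(Sub1) elongating leaves, against 31.2, 29.4 and 43.0 CPM on day 3, and 16.9, 19.4 and 19.7 CPM on day 6 in M202 elongating leaves, against 23.1, 13 and 23.5 CPM on day 3. The days overlapped in both. The changes were -0.22 ± 0.22 and -0.09 ± 0.23 (edgeR adjusted p = 0.552 and 0.818), and in non-elongating leaves -0.73 ± 0.24 in M202(Sub1) and 0.04 ± 0.23 in M202 (0.0535 and 0.922).

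**Figure D3:**
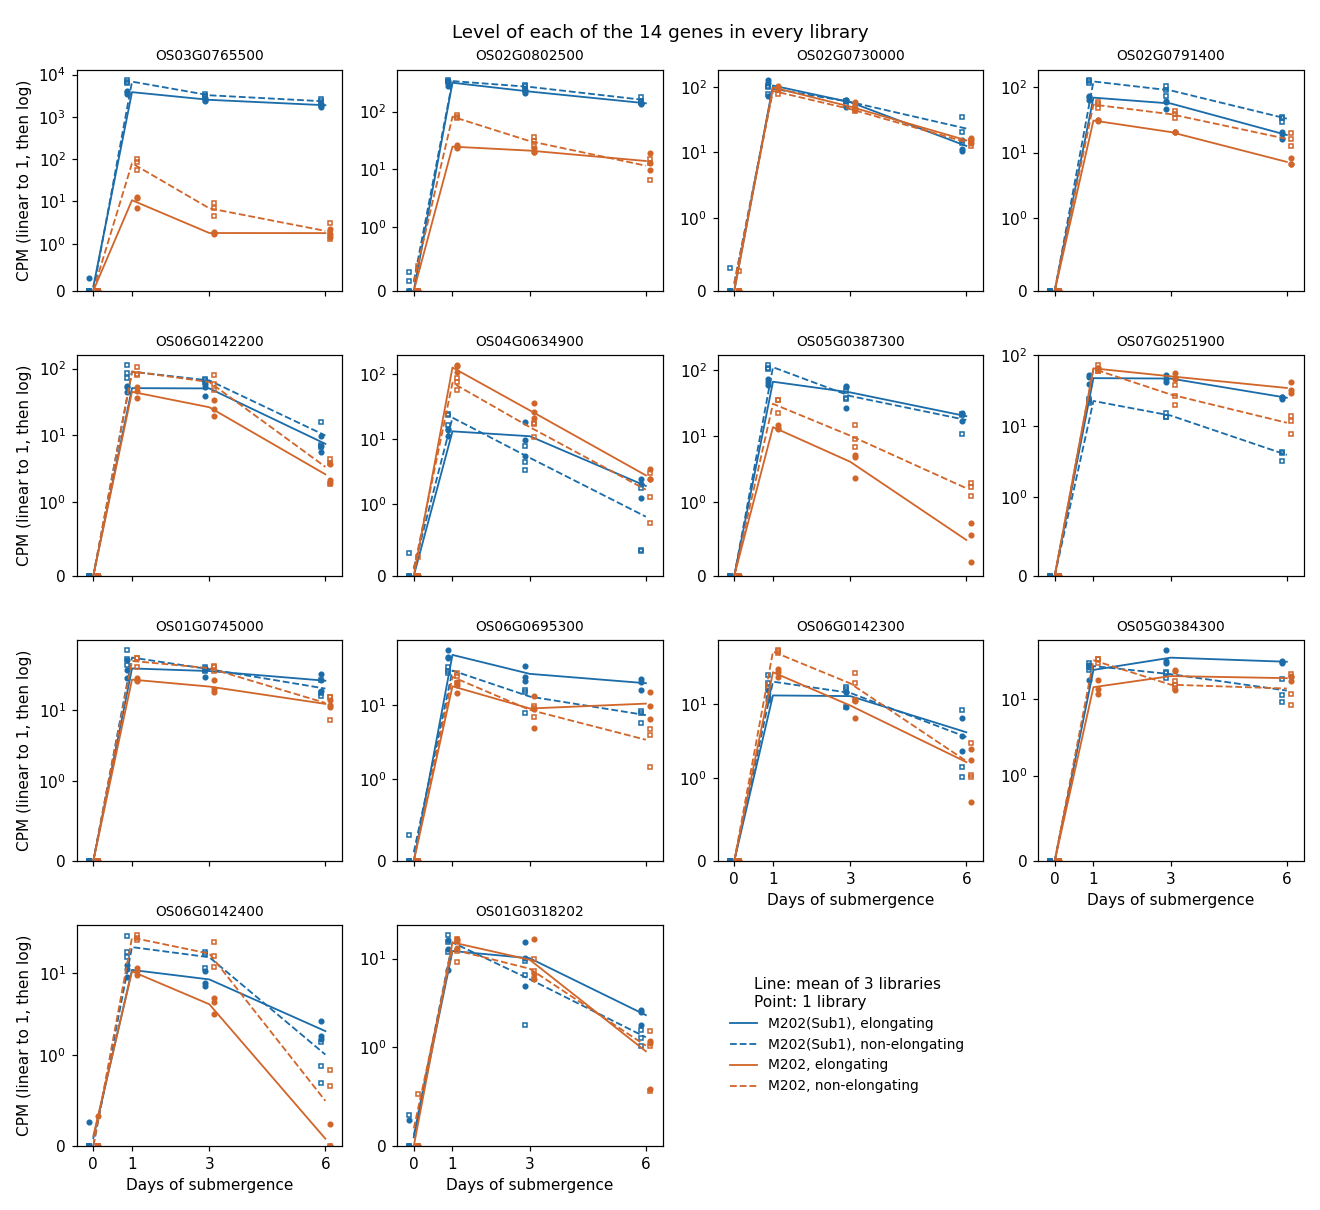
CPM of each of the 14 genes in every library (points) with group means (lines) over days 0, 1, 3 and 6 of submergence, on an axis that is linear to 1 CPM and logarithmic above. All genes start at or near 0, most are highest on day 1, and OS03G0765500 shows the widest gap between M202(Sub1) (blue) and M202 (orange).

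Genotypes differed on days 3 and 6 for 10 of the 14 genes on each day in elongating leaves and for 6 and 7 in non-elongating leaves, more often with M202(Sub1) higher. In elongating leaves M202(Sub1) exceeded M202 on day 3 for 9 of the 14 genes and was lower for 1, where 6.33% of all tested genes were higher and 8.35% lower. On day 6 the counts were again 9 higher and 1 lower, against 10.3% and 10.1% of all genes. In non-elongating leaves 4 were higher and 2 lower on day 3, against 5.94% and 7.87%, and 6 higher and 1 lower on day 6, against 7.17% and 8.13%. The median change of the 14 genes was 0.84 and 1.24 on days 3 and 6 in elongating leaves and 0.30 and 0.80 in non-elongating leaves, while that of all tested genes was 0.02 and 0.00, and 0.00 and -0.00. Over the 4 comparisons, 4 genes were higher in M202(Sub1) in all, 5 were higher in 1 to 3, 2 were lower in 1 to 3, and OS02G0730000, OS06G0142300 and OS01G0318202 were called in none. Without replicate 2 of M202 non-elongating leaves on day 6, the library that correlated least with its group, 6 of the 14 genes differed between the genotypes in non-elongating leaves on day 6, 12 between days 6 and 3 in those leaves of M202, and 4 between the leaf types of M202 on day 6.

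**Figure D4:**
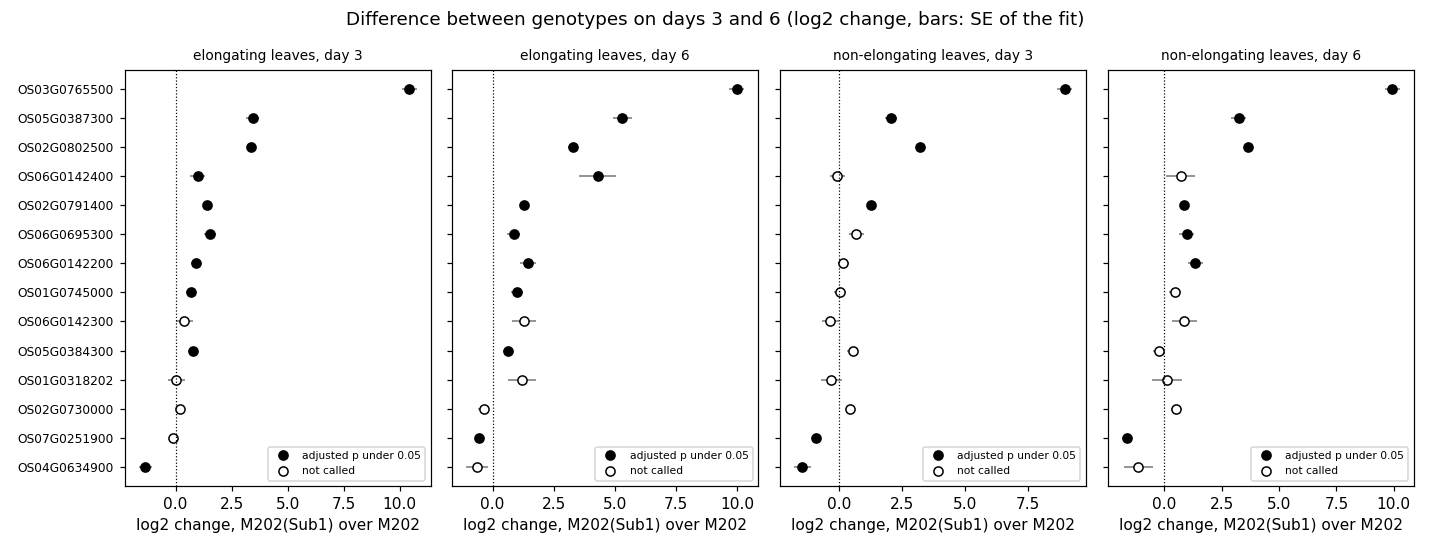
Log2 change of each of the 14 genes, M202(Sub1) over M202, on days 3 and 6 in elongating (left) and non-elongating leaves (right), with bars for the SE of the fit and filled points for an adjusted p under 0.05. OS03G0765500 lies between 8.95 and 10.43 in the 4 panels, OS05G0387300, OS02G0802500 and OS02G0791400 lie to the right of 0 in all 4, and OS04G0634900 lies to the left.

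OS03G0765500 differed most between the genotypes. On day 1 it had 4143, 3497 and 3860 CPM in M202(Sub1) elongating leaves, against 12.8, 12.1 and 7.03 CPM in M202 elongating leaves. On day 6 it had 2010, 1950 and 1682 CPM in M202(Sub1) elongating leaves, against 1.45, 1.66 and 2.22 CPM in M202 elongating leaves. In non-elongating leaves on day 6 it had 2672, 2428 and 1853 CPM in M202(Sub1), against 1.75, 3.00 and 1.26 CPM in M202. Every library of M202(Sub1) lay far above every library of M202 on each submerged day. The changes were 10.43 ± 0.32 on day 3 and 9.98 ± 0.31 on day 6 in elongating leaves, and 8.95 ± 0.29 and 9.94 ± 0.31 in non-elongating leaves (edgeR adjusted p = 1.99e-26, 2.43e-26, 9.21e-26 and 2.6e-26). At day 0 this gene had 2 counts in 1 library of M202(Sub1) and no count in M202, a low level that the choice of the genes required. On day 6 it stood at 49.1% of day 1 in M202(Sub1) elongating leaves, against 16.7% in M202 elongating leaves, and at 34.1% in M202(Sub1) non-elongating leaves, against 2.52% in M202 non-elongating leaves.

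OS03G0765500 made up most of the summed counts of the 14 genes in M202(Sub1). The sum in elongating leaves on day 1 was 4648 ± 282 CPM in M202(Sub1) and 525 ± 12.9 CPM in M202 (SD, n = 3 each). Without this gene it was 814 ± 66.8 CPM in M202(Sub1) and 514 ± 11.5 CPM in M202. On day 6 the sum without it was 309 ± 20.4 CPM in M202(Sub1) elongating and 292 ± 36.1 CPM in M202(Sub1) non-elongating leaves, against 121 ± 14.1 CPM in M202 elongating and 92.4 ± 21.6 CPM in M202 non-elongating leaves. The libraries of the genotypes did not overlap on day 6 in either leaf type, with or without this gene. Much of the sum that is left in M202(Sub1) came from OS02G0802500, with a mean of 140 CPM in M202(Sub1) elongating and 158 CPM in M202(Sub1) non-elongating leaves on day 6, against 13.8 CPM in M202 elongating and 11.4 CPM in M202 non-elongating leaves.

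**Figure D5:**
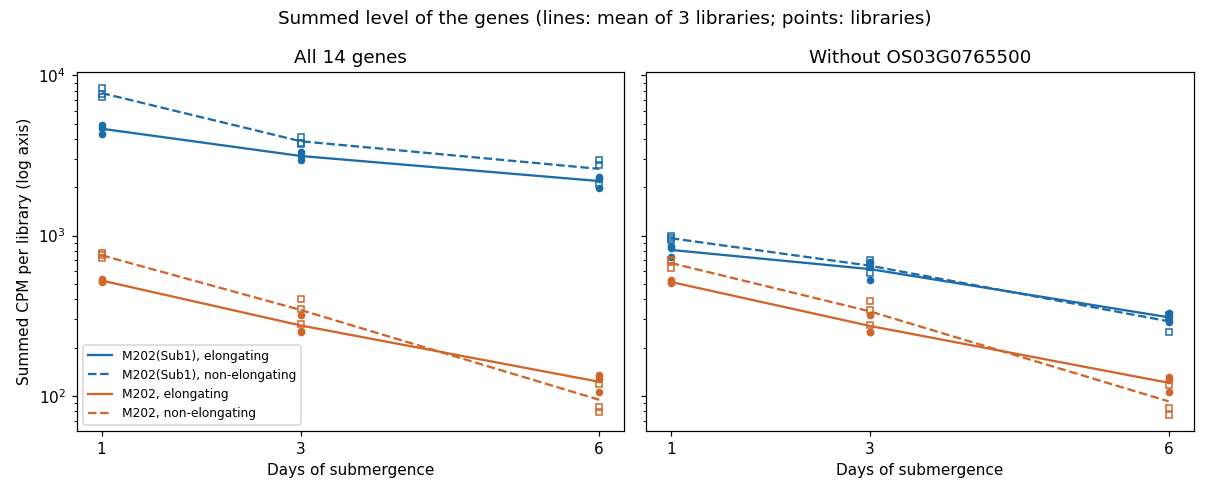
Summed CPM of all 14 genes (left) and of the 13 genes without OS03G0765500 (right) in each library (points) with group means (lines) on days 1, 3 and 6, on a log axis. M202(Sub1) lies above M202 in both panels, by far more in the left one, with sums of 2190 and 2610 CPM in M202(Sub1) on day 6 against 122 and 94.4 CPM in M202.

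OS02G0802500, OS05G0387300 and OS02G0791400 were the other genes higher in M202(Sub1) in all 4 comparisons. OS02G0802500 had 142, 141 and 135 CPM on day 6 in M202(Sub1) elongating leaves, against 9.84, 12.7 and 19.0 CPM in M202 elongating leaves. In non-elongating leaves it had 151, 179 and 144 CPM on day 6 in M202(Sub1), against 15.1, 6.53 and 12.8 CPM in M202. The genotypes were well apart, with changes of 3.27 ± 0.17 and 3.65 ± 0.17 (edgeR adjusted p = 2.37e-19 and 1.59e-20), and of 3.38 ± 0.17 and 3.20 ± 0.16 on day 3 (7.23e-20 and 1.6e-19). The ratio of group means of this gene on days 1, 3 and 6 was 12.9, 10.6 and 10.1 in elongating leaves and 4.15, 8.76 and 13.8 in non-elongating leaves. The change of the genotype difference between days 3 and 6 was not called in either, at -0.11 ± 0.23 and 0.44 ± 0.23 (edgeR adjusted p = 0.909 and 0.348).

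OS05G0387300 had 22.1, 21.3 and 16.7 CPM on day 6 in M202(Sub1) elongating leaves, against 0.193, 0.712 and 0.555 CPM in M202 elongating leaves. In non-elongating leaves it had 20.6, 21.5 and 10.6 CPM in M202(Sub1), against 1.97, 1.24 and 1.68 CPM in M202. It thus stayed well above its day 0 level in M202(Sub1), while in M202 it was at most 6 counts per library in elongating leaves. In M202 non-elongating leaves its mean was still at least 3.17-fold above day 0, against the floor of 3 counts per library. The changes on day 6 were 5.30 ± 0.39 in elongating and 3.25 ± 0.33 in non-elongating leaves (edgeR adjusted p = 1.69e-13 and 6.04e-10), and on day 3 3.44 ± 0.28 and 2.06 ± 0.25 (2.5e-12 and 4.5e-08). OS02G0791400 differed less, by 0.88 to 1.42. It had 20.7, 19.2 and 15.9 CPM on day 6 in M202(Sub1) elongating leaves, against 6.65, 6.65 and 8.32 CPM in M202 elongating leaves, and the genotypes did not overlap (1.30 ± 0.15, edgeR adjusted p = 8.91e-09).

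The 5 genes called higher in 1 to 3 comparisons rested on smaller differences or fewer counts. OS06G0142200 was called on both days in elongating leaves, at 0.91 ± 0.23 and 1.44 ± 0.34 (edgeR adjusted p = 0.00501 and 0.00161), and on day 6 in non-elongating leaves at 1.35 ± 0.32 (0.00269). That last call was lost without replicate 1 of M202(Sub1), at 0.84 (edgeR adjusted p = 0.108), and the day 3 call without replicate 3 of M202, at 0.74 (0.0535). OS06G0142400 had 2.61, 1.68 and 1.55 CPM on day 6 in M202(Sub1) elongating leaves, against 0, 0.237 and 0 CPM in M202 elongating leaves. With 45 counts against 2, both of these in 1 library, the ratio was 25.6, and the test called the difference (edgeR adjusted p = 3.18e-05). The exact binomial 95% interval of 6.69 to 218 covers counting error only, not the spread between replicates. It is too narrow if both reads of a pair were counted.

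OS06G0695300 was higher by 1.53 ± 0.28 on day 3 and 0.86 ± 0.27 on day 6 in elongating leaves, and by 0.97 ± 0.34 on day 6 in non-elongating leaves (edgeR adjusted p = 9.81e-05, 0.0209 and 0.0484). The last was lost when 21 of the 48 libraries were left out in turn, and that on day 6 in elongating leaves without replicate 1 or 2 of M202 or replicate 1 or 3 of M202(Sub1) (edgeR adjusted p = 0.0541 to 0.169). OS01G0745000 was higher by 0.70 ± 0.23 and 1.01 ± 0.24 on days 3 and 6 in elongating leaves (edgeR adjusted p = 0.0364 and 0.00189), and OS05G0384300 by 0.77 ± 0.22 and 0.63 ± 0.22 (0.0143 and 0.0362). The day 3 call of OS01G0745000 was lost without replicate 1 or 2 of M202 or replicate 2 or 3 of M202(Sub1) (edgeR adjusted p = 0.102 to 0.171), and that of OS05G0384300 without replicate 2 of M202 or replicate 3 of M202(Sub1) (0.144 and 0.108). The day 6 call of OS05G0384300 was lost without any 1 of the 6 libraries compared (edgeR adjusted p = 0.069 to 0.114). OS06G0142400 on day 3 was called at 0.98 ± 0.34 (edgeR adjusted p = 0.0453) and lost without any 1 replicate of M202, or replicate 2 or 3 of M202(Sub1), of that day (0.0537 to 0.216).

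OS04G0634900 and OS07G0251900 went the other way. OS04G0634900 had 13.6, 14.3 and 11.2 CPM on day 1 in M202(Sub1) elongating leaves, against 136, 109 and 132 CPM in M202 elongating leaves. On day 3 it had 17.9, 5.47 and 9.49 CPM in M202(Sub1) elongating leaves, against 35.6, 25.8 and 20.8 CPM in M202 elongating leaves. By day 6 the genotypes overlapped, at 1.99, 2.40 and 1.24 CPM in M202(Sub1) and 3.47, 2.37 and 2.36 CPM in M202. It was called lower on day 3 in both leaf types, by -1.36 ± 0.29 in elongating and -1.47 ± 0.33 in non-elongating leaves (edgeR adjusted p = 0.000549 and 0.00138), and on day 6 in neither (-0.63 ± 0.45 and -1.14 ± 0.63, edgeR adjusted p = 0.365 and 0.242).

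OS07G0251900 had 3.26, 4.38 and 4.16 CPM on day 6 in M202(Sub1) non-elongating leaves, against 11.9, 7.77 and 13.9 CPM in M202 non-elongating leaves. In elongating leaves it had 24.5, 25.5 and 25.7 CPM in M202(Sub1), against 29.7, 42.0 and 32.3 CPM in M202. The gap was wider in the non-elongating leaves, with -1.64 ± 0.22 on day 6 and -0.91 ± 0.18 on day 3 (edgeR adjusted p = 5.8e-07 and 0.000237), than in elongating leaves, with -0.54 ± 0.16 on day 6 (0.0149) and -0.13 ± 0.16 on day 3 (0.661), though the difference between leaf types was not tested. The day 6 call in elongating leaves was lost without replicate 2 of M202, at -0.40 (edgeR adjusted p = 0.115), and without replicate 1 of M202(Sub1), at -0.52 (0.0553).

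OS02G0730000 was the most even of the genes on day 1, with group means of 86.4 to 104 CPM. It had 11.4, 15.6 and 10.5 CPM on day 6 in M202(Sub1) elongating leaves, against 16.3, 14 and 15.5 CPM in M202 elongating leaves, so the genotypes overlapped. Its changes between genotypes lay between -0.37 and 0.53, and none was called.

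Leaf types differed in both directions, and in M202 the share of the 14 genes that was higher in elongating leaves was near that of all genes. In M202(Sub1), 4 of the 14 genes were higher in elongating than in non-elongating leaves on day 3 and 2 lower, where 10.7% of all tested genes were higher and 10.7% lower. On day 6 in M202(Sub1), 3 were higher and 2 lower, against 9.64% and 8.18% of all genes. In M202, 2 were higher and 7 lower on day 3, against 16.9% and 17.2%, and 2 higher and 3 lower on day 6, against 11.8% and 11.3%. The median change was -0.03 and 0.31 in M202(Sub1) and -0.58 and -0.16 in M202 on days 3 and 6. The day 3 count in M202(Sub1) fell to 3 genes without replicate 3 of its non-elongating leaves, and the day 6 count in M202 to 3 without replicate 1 of its elongating leaves.

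OS07G0251900 was higher in elongating leaves in all 4 comparisons, by 1.75 ± 0.17 and 2.67 ± 0.21 on days 3 and 6 in M202(Sub1) and by 0.98 ± 0.16 and 1.56 ± 0.17 in M202 (edgeR adjusted p = 5.23e-10, 2.87e-12, 7.66e-06 and 6.35e-09). OS02G0791400 was lower in elongating leaves in all 4, by -0.64 ± 0.12 and -0.82 ± 0.13 in M202(Sub1) and by -0.78 ± 0.13 and -1.25 ± 0.15 in M202 (edgeR adjusted p = 0.000103, 1.14e-05, 9.45e-06 and 3.25e-08). On day 6 OS02G0791400 had 20.7, 19.2 and 15.9 CPM in elongating leaves of M202(Sub1), against 34.2, 35.4 and 29.6 CPM in its non-elongating leaves. The leaf types were apart there, as they were in M202, at 6.65, 6.65 and 8.32 CPM in elongating leaves and 19.7, 12.6 and 16.3 CPM in non-elongating leaves.

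In M202 the largest called differences were lower levels of OS06G0142400 in elongating leaves on both days, with -1.93 ± 0.33 on day 3 (edgeR adjusted p = 9.55e-06). On day 6 there were 2 counts against 14, a ratio of 0.143 (edgeR adjusted p = 0.0406). The exact binomial 95% interval of that ratio, 0.0157 to 0.621, covers counting error only. The day 6 call was lost without any 1 of 4 libraries of the groups compared. OS03G0765500 was lower in elongating leaves of M202 on day 3, with 1.87, 1.81 and 1.68 CPM in elongating leaves, against 9.01, 7.15 and 4.42 CPM in non-elongating leaves (-1.81 ± 0.35, edgeR adjusted p = 5.98e-05). In M202(Sub1) the leaf types of this gene were close on day 3, at 2309, 2793 and 2466 CPM in elongating leaves and 3029, 3142 and 3529 CPM in non-elongating leaves (-0.34 ± 0.19, edgeR adjusted p = 0.238).

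Whether the decline between days 3 and 6 differed between the genotypes was tested as an interaction, with positive values for a smaller fall in M202(Sub1). In elongating leaves 1 of the 14 genes was called with a positive and 0 with a negative value, where 0.848% and 0.461% of all tested genes were called. The gene was OS06G0142400, at 3.31 ± 0.89 (edgeR adjusted p = 0.0497), and its size depends on the small count added to the 2 counts of M202 elongating leaves on day 6. The call was lost in 29 of the 48 fits that left out 1 library, and without replicate 1 or replicate 3 of M202 elongating leaves on day 6 the value was 2.73 or 2.91 (edgeR adjusted p = 0.208 and 0.145). Without replicate 2 of that group, which held both counts, it was 5.69 (edgeR adjusted p = 0.0302). A fit of days 3 and 6 only did not call OS06G0142400 (3.32, edgeR adjusted p = 0.0747). In elongating leaves OS05G0387300 was not called in the main fit, but DESeq2 called it at 1.90 (DESeq2 adjusted p = 0.0301). The fit without the filter also called OS05G0387300, at 1.86 (edgeR adjusted p = 0.0232). In non-elongating leaves 0 of the 14 genes were called by edgeR in either direction, against 1.12% and 0.559% of all genes. There, 6 of the 14 genes had an unadjusted p under 0.05, against 2 in elongating leaves, and DESeq2 also called 0. The share of all tested genes at that unadjusted p was not counted, so these counts have no baseline. The 6 genes in non-elongating leaves went both ways, with positive values for OS03G0765500, OS06G0142200 and OS05G0387300 (0.99, 1.19 and 1.19) and negative ones for OS02G0791400, OS05G0384300 and OS07G0251900 (-0.40, -0.78 and -0.73). Without replicate 2 of M202 on day 6, the library with the most counts in 1 gene, OS03G0765500 was called at 1.51 (edgeR adjusted p = 0.0366), against 0.99 ± 0.37 (0.166) with it. The median interaction of the 14 genes was 0.10 in elongating and 0.43 in non-elongating leaves, and that of all tested genes was 0.00 in both. The interaction was thus not called for 13 of the 14 genes in elongating and 14 of 14 in non-elongating leaves. It covers days 3 to 6 only and does not test the percent of the day 1 level. The median percent was already higher in M202(Sub1) on day 3, at 82.1% against 54.8% in elongating leaves. In non-elongating leaves it was 65.9% against 45.8%. The higher percent of the day 1 level in M202(Sub1) is a description without a test.

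Genes of fermentation, ethylene synthesis and perception, ethylene response factors and sugar use, listed by 26 identifiers, mostly did not meet both thresholds. Some that missed a threshold still rose from a low level. OS07G0674800 had day 0 group means of up to 0.359 CPM and day 1 means of 33.5 to 141 CPM. ADH2 (an alcohol dehydrogenase) had up to 0.434 CPM at day 0 and 4.55 to 213 CPM on day 1. Of the 26, 12 were above the day 0 threshold only, 3 under the day 1 threshold only and 10 missed both, and OS02G0730000 was the only one among the 14 genes. The 3 that were silent in air but missed the day 1 threshold were PDC1 (pyruvate decarboxylase), with a lowest day 1 group mean of 6.50 CPM, and ACS5 and ACS1 (enzymes of ethylene synthesis), with 3.35 and 1.89 CPM. PDC1 reached 59.5 ± 10.9 CPM on day 1 in M202(Sub1) elongating leaves, against 6.50 ± 1.78 CPM in M202 elongating leaves (SD, n = 3 each). In non-elongating leaves it reached 69.9 ± 16.5 CPM in M202(Sub1) and 50.6 ± 5.17 CPM in M202 (SD, n = 3 each). By day 6 PDC1 was at 3.92% of its day 1 level in M202(Sub1) elongating and 4.73% in M202(Sub1) non-elongating leaves, against 9.75% in M202 elongating and 0.537% in M202 non-elongating leaves. ADH1, another alcohol dehydrogenase, was not silent in air, with a highest day 0 group mean of 22.0 CPM, but had 359 to 1497 CPM on day 1. It stood on day 6 at 23% of day 1 in M202(Sub1) elongating leaves, against 8.95% in M202 elongating leaves.

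Of the 25 listed genes that could be tested, which include OS02G0730000, M202(Sub1) exceeded M202 in elongating leaves for 7 and was lower for 4 on day 3 (6.33% and 8.35% of all tested genes), and 7 were higher and 5 lower on day 6 (10.3% and 10.1%). In non-elongating leaves 5 were higher and 5 lower on day 3 (5.94% and 7.87% of all genes), and 8 higher and 2 lower on day 6 (7.17% and 8.13%). PDC1 was among the higher in all 4 comparisons, by 3.10 ± 0.26 and 1.76 ± 0.40 in elongating leaves on days 3 and 6 (edgeR adjusted p = 1.03e-12 and 0.00109) and by 1.65 ± 0.21 and 3.36 ± 0.47 in non-elongating leaves (1.23e-07 and 7.17e-07). From day 3 to day 6, 4 listed genes rose and 7 fell in M202(Sub1) elongating leaves, where 6.74% and 7.13% of all genes did, and 2 rose and 7 fell in M202(Sub1) non-elongating leaves, against 3.60% and 3.83%. In M202 elongating leaves 4 rose and 6 fell, against 13.7% and 14.6%, and in M202 non-elongating leaves 1 rose and 10 fell, against 13.9% and 15.3%. The median changes of the list there, -0.02, -0.17, -0.01 and -0.55, stand beside -1.43, -1.41, -1.60 and -1.49 for the 14 genes. The sets are not alike, since the list also holds genes that did not rise by day 1. SUS1, of sugar use, had group means of up to 49.6 CPM on day 0 and up to 13.4 CPM on day 1. Among listed genes that rose, PDC1 stood on day 6 at 0.537 to 9.75% of day 1, and CIPK15, of sugar use, at 356 to 450%.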

How the data were processed

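Per the labels' protocols, rice leaf RNA was read from both fragment ends. The authors deposited whole-number counts for each gene in each library. STAR, featureCounts, DESeq2 and IRGSP-1.0 stand in the submitters' processing notes without versions. CPM are counts times 1000000 over the column total, a description of level within a gene only. The 14 genes and the gene lists were chosen with earlier results of these data known. Genes passing filterByExpr (minimum count 10, minimum total 15; 21453 of 37830) were scaled with TMM and tested with edgeR 4.0.16 (R 4.3.3) in 1 quasi-likelihood fit of all 16 groups and 48 libraries, with 32 residual degrees of freedom and a common biological coefficient of variation of 0.152. Two-sided p-values were given the Benjamini-Hochberg adjustment over the 21453 genes, at a threshold of 0.05. The SE is the log2 change over the square root of F. The scripts were tested on simulated data. Alternatives were upper-quartile and RLE scaling, no filter, a fit of days 3 and 6 only, a replicate block, DESeq2 1.42.0 and each library left out in turn, where the filter and dispersion trend of the full fit were used. All 14 genes are named, 13 by a rule (the highest day 1 levels, the fastest and slowest declines, and the largest called changes of each comparison) and OS01G0318202 as 1 of the 3 nearest to each threshold. None of the 14 identifiers was in the RefSeq gene table (assembly ASM3414082v1). Of 26 listed pairs of identifier and symbol, 18 were checked there by symbol, chromosome and order, and only checked names are given. Intervals and floors cover counting error only, and are too narrow where both reads of a pair were counted. Figures were drawn with matplotlib 3.10.9.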

Additional observations from a re-analysis of the deposited data

Results flagged for a closer look

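OS06G0142400 in elongating leaves changed differently between days 3 and 6 in the genotypes by the test of that difference itself. It had 2.61, 1.68 and 1.55 CPM on day 6 in M202(Sub1), against 6.94, 10.5 and 7.50 CPM on day 3, and 0, 0.237 and 0 CPM on day 6 in M202, against 3.12, 4.93 and 4.37 CPM on day 3. The change in M202(Sub1) minus that in M202 was 3.31 on the log2 scale (edgeR adjusted p = 0.0497). Over all alternatives the adjusted p lay between 0.0162 (no filter) and 0.208 (without replicate 1 of M202 elongating leaves on day 6). Without replicate 2 of M202 on day 6, which held the only 2 counts of that group, the value was 5.69 (edgeR adjusted p = 0.0302).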

How the results depend on the processing

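The number of genes that met the thresholds was 4 with limits of 0.1 and 20 CPM, 78 with 0.5 and 5 CPM, and 7 when every library had to pass. It was 13 to 24 when 1 library was left out, and 17 with TMM library sizes. Of 104 called differences of single genes, none changed direction under 54 alternatives. Of the resulting pairs, 5474 stayed called and 142 did not, for example OS02G0802500 between leaf types in M202 on day 3, lost in 29 alternatives. In 48 of the alternatives 1 library was left out, mostly from groups outside the comparison, and the filter and dispersion trend were kept. Most pairs could therefore hardly change, and the tally does not measure how firm a call is. OS05G0384300 between genotypes in elongating leaves on day 6 was lost without any 1 of the 6 libraries compared. With 1 library left out, the counts of called genes ranged from 3 to 6 between leaf types in M202(Sub1) on day 3 and from 3 to 5 in M202 on day 6. The interaction in non-elongating leaves gave 1 gene without the filter (OS06G0142200) and 0 to 1 with 1 library left out, where OS03G0765500 was called at 1.51 without replicate 2 of M202 on day 6. In elongating leaves it gave 2 genes with DESeq2 and without the filter (OS06G0142400 and OS05G0387300 in each). It gave 0 with days 3 and 6 only or upper-quartile scaling, and 0 to 1 with 1 library left out. The median log2 ratio of day 6 to day 1 in M202 elongating leaves, -2.46, was -2.62 with TMM library sizes and -2.18 with a pseudocount of 2. Same-numbered libraries did not deviate together (mean r 0.0007 over 360 pairs, most of them across days or genotypes). Between the leaf types of 1 genotype and day, mean r was 0.0054 over 24 same-numbered pairs and -0.0027 over 48 other pairs. The replicate block gave 11 instead of 10 genes between genotypes in elongating leaves on day 6, and ended the OS02G0802500 call named above. Levels under 3 counts per library could not be resolved.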
